A study of Mus musculus with 8 samples.

Results

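The tumour necrosis factor (TNF) superfamily is a group of trimeric cytokines, most of them made as membrane proteins that can be shed, together with the cell surface receptors that bind them. Receptors with a cytoplasmic death domain can recruit FADD and caspase-8 and so start cell death, others bind TRAF adaptors that lead to NF-κB and MAP kinases, and decoy receptors bind ligand without passing on a full signal. In the injured heart, TNF and several relatives act on fibroblasts as well as on immune and muscle cells. The genes described here are the rows of the expression table whose symbol begins with Tnfsf or Tnfrsf, or is Tnf, Lta, Ltb, Ltbr, Fas, Fasl, Cd40, Cd40lg, Cd27, Cd70, Eda, Edar, Eda2r or Ngfr. This rule found 46 genes of 22274, which were 19 ligands and 27 receptors. The rule reads symbols only, and it and the gene lists used below were chosen with earlier results of these data known.

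RNA was sequenced from mouse primary cardiac fibroblasts in a GFP control group and a group labelled OEIRF7, for overexpression of IRF7, a transcription factor of the type I interferon response. There were 4 libraries in each group. Both groups had received TGF-β, the cytokine that drives fibroblasts to become myofibroblasts, at 5 ng/ml for 24 hours in the study's methods, and no group without TGF-β was analysed here. The sources used here differ on whether the vector was an adenovirus or an adeno-associated virus. The study's methods put its mouse strains on a C57BL/6 J background. The age and number of the animals behind these cultures are not given, and the labels do not say that the 4 libraries of a group came from separate cultures. The p-values below therefore measure the spread between these libraries, which may be technical.

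The libraries held 24454801 to 28658826 counts, and values within a gene are given as counts scaled to library size (CPM) with replicates 1 to 4 in order. Mouse Irf7 stood at 2861, 3680, 2272 and 3291 counts in the GFP libraries and 385, 421, 380 and 404 counts in those labelled OEIRF7. The targeted gene was thus lower, not higher, in all 4 libraries labelled OEIRF7, with a log2 fold change of −2.96 (SE 0.121, edgeR adjusted p = 7.7e-11). Counts on the mouse gene do not measure a transgene from another species. The reagents named by the study are an adenovirus with human IRF7 and an adeno-associated virus with mouse Irf7. Whether the labels of the groups are right was not tested, so the groups are named by their labels throughout and every direction below is drawn between those labels. For 7 marker lists, CPM were summed, which are not scaled to gene length, so the lists are not ranked by their sums. The fibroblast list summed to 13460.2 to 14180.4 CPM in GFP and 11856 to 12453 CPM in OEIRF7. Most of this came from Col1a1, Col1a2, Postn and Col3a1. The 10 fibroblast genes were all tested, and 1 was called higher and 6 lower. Beside the counts for each list, 58.9% of all genes tested were called, 29.0% higher and 29.9% lower. Markers of macrophages, which make TNF and carry many of its receptors, summed to 296 to 351 CPM in GFP and 369 to 414 CPM in OEIRF7. Of these 10 genes, all tested, Itgam (1.07 on the log2 scale), Mrc1 (1.05), Adgre1 (0.44), Lyz2 (0.22) and Cd68 (0.21) were called higher and Cx3cr1 (−1.86) lower, while Ptprc, Csf1r, C1qa and C1qb were not called. Lymphocyte markers summed to at most 1.86 CPM, and Cd3d, Cd3e, Cd3g and Cd8a had no count in any library. Lck, the T cell kinase and the only lymphocyte marker tested, was called higher, from 0.284 to 0.725 CPM on average (1.35 on the log2 scale, edgeR adjusted p = 0.012). It had 2, 7, 7 and 13 counts in the GFP libraries and 13, 29, 19 and 16 counts in those labelled OEIRF7. It thus passed the filter on low counts only through the group in which it was higher, which favours a call in that direction. Without that filter the B cell gene Ms4a1 was called higher too (2.24, edgeR adjusted p = 0.019). Endothelial markers summed to 217 to 231 CPM in GFP and 221 to 249.7 CPM in OEIRF7, and mural markers to 68.9 to 76.0 and 79.0 to 98.8 CPM. Of the 5 mural markers tested, Cspg4 (1.5) and Rgs5 (0.73) were higher and Notch3 (−1.61) and Myh11 (−0.98) lower. Cardiomyocyte markers summed to 9.84 to 13.7 CPM in GFP and 7.50 to 9.73 CPM in OEIRF7. Nearly all of this came from Tnnt2, the only 1 of the 7 tested, which was called lower (−0.54, edgeR adjusted p = 0.00057). Without the filter on low counts, Ryr2 of the same list was called higher (1.73, edgeR adjusted p = 0.033). Epicardial markers summed to 72.4 to 88.6 CPM in GFP and 58.3 to 65.8 CPM in OEIRF7. Of the 5 epicardial markers, all tested, Krt19 (1.96) and Msln (0.19) were higher and Upk3b (−1.32) lower. In a bulk sample, fewer cells of a type and less RNA per cell cannot be told apart. The part of these other cell types in the results below was not tested.

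These cultures carried much receptor RNA and little ligand RNA. Levels of different genes are compared only as FPKM, which is scaled to gene length. All 11 genes with a mean of at least 20 FPKM over the 8 libraries were receptors, and 26 of the 46 genes were under 1 FPKM. Tnfrsf12a, the receptor of TWEAK also called Fn14, was the highest, at 175 ± 7.05 FPKM in GFP and 363 ± 19.2 FPKM in OEIRF7 (SD, n = 4). Below it came Tnfrsf23, a decoy receptor of the ligand TRAIL, at 93.4 ± 5.74 FPKM in GFP and 108 ± 2.57 FPKM in OEIRF7 (SD, n = 4). The other 9 had means over the 8 libraries of 53.0 FPKM for Tnfrsf11b (osteoprotegerin), 52.5 for Tnfrsf1a, 49.3 for Cd40, 47.8 for Ltbr, 45.3 for Tnfrsf26, 33.0 for Tnfrsf1b, 27.9 for Tnfrsf10b, 25.9 for Eda2r and 21.7 for Fas. The highest ligand in GFP was Tnfsf12, which encodes TWEAK, at 12.7 ± 1.10 FPKM in GFP and 10.1 ± 0.526 FPKM in OEIRF7 (SD, n = 4). Summed over all 19 ligands, the level was 23.4 to 26.0 FPKM in GFP and 32.7 to 34.4 FPKM in OEIRF7, against 633 to 648 and 849 to 867 FPKM for the 27 receptors. Ligands were 3.50% to 3.87% of the summed FPKM of the 46 genes in GFP and 3.64% to 3.81% in OEIRF7. Tnfrsf12a alone was 25.2% to 27.5% of that sum in GFP and 38.7% to 43.0% in OEIRF7.

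**Figure D1:**
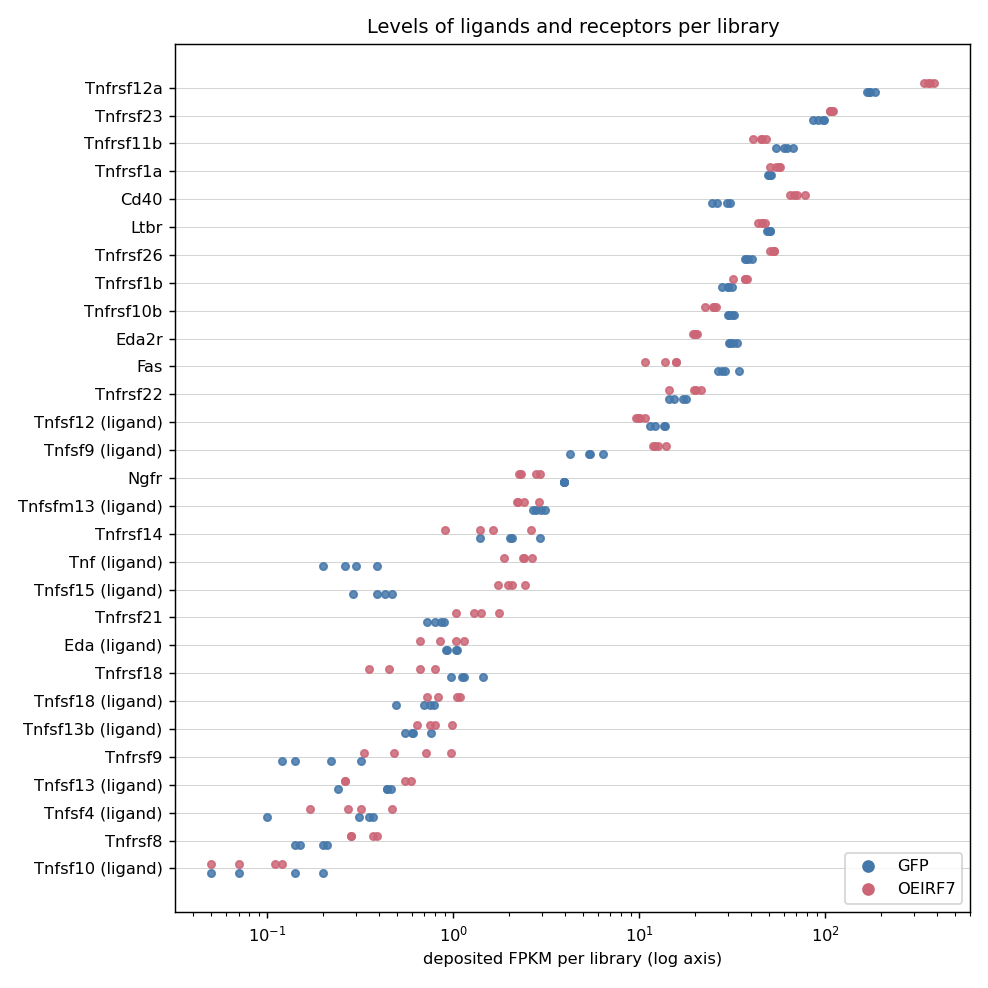
Deposited FPKM (log axis) of the 29 genes that were tested, ordered by mean, with 1 point for each of the 4 GFP (blue) and 4 OEIRF7 (red) libraries. Tnfrsf12a sits alone at the top in both groups, all genes at or above 20 FPKM are receptors, and the points of Tnf and Tnfsf15 lie farther apart between the groups than those of any gene above them.

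Between the groups, 29 of the 46 genes had enough counts to be tested. Of these, 12 were called higher in OEIRF7 and 9 lower at an edgeR adjusted p under 0.05 over all genes tested, which is 72.4% of them. Many genes differed in this comparison, since 58.9% of the 13533 genes tested were called, 29.0% higher and 29.9% lower. For 21 of the 29, every library of 1 group lay above every library of the other, which held for 53.8% of all genes tested. Beyond a doubling or halving, that is a log2 fold change past 1 in size, 6 of the 29 were called higher and 2 lower, where 8.56% of all genes tested were called, 4.66% higher and 3.89% lower. The median log2 fold change of the 29 genes was 0.10, and that of all genes tested was 0.00. The 6 higher were the ligands Tnf, Tnfsf15 and Tnfsf9 and the receptors Cd40, Tnfrsf9 and Tnfrsf12a, and the 2 lower were the receptors Fas and Tnfrsf18.

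**Figure D2:**
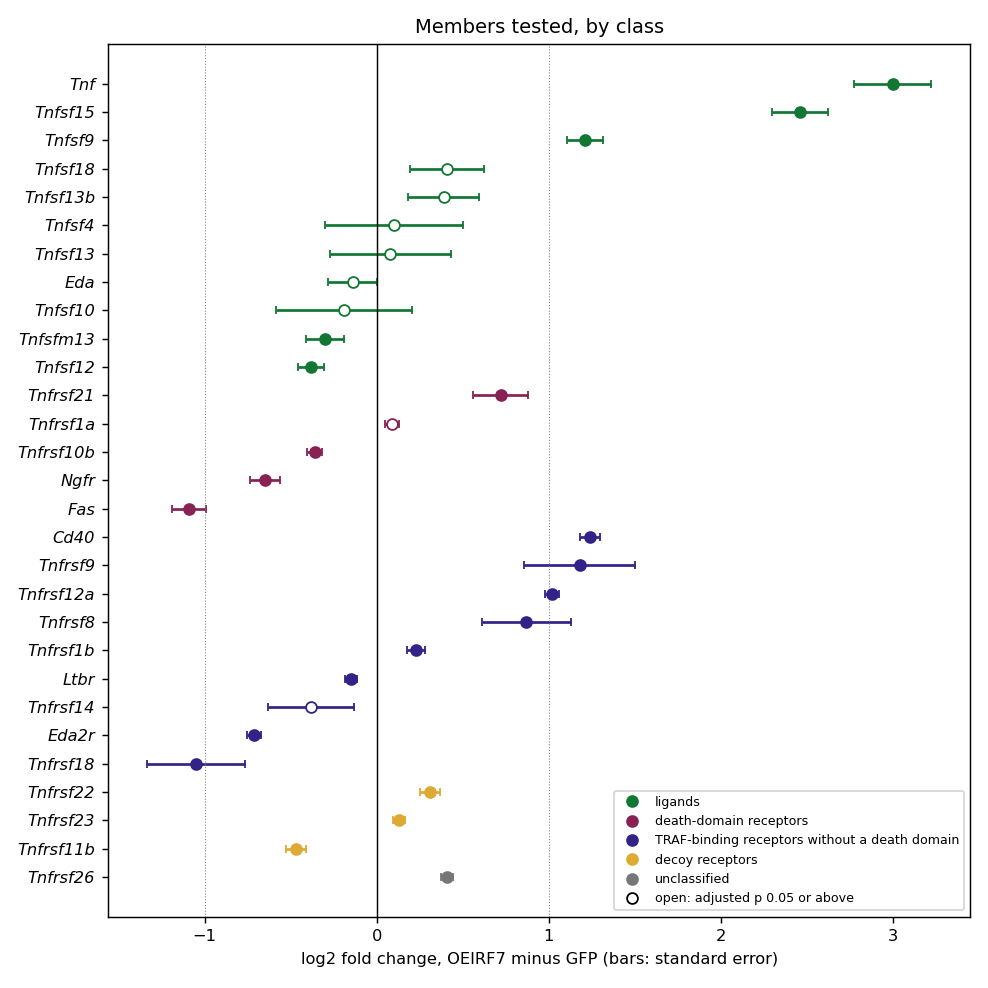
Log2 fold change (OEIRF7 minus GFP) of the 29 genes tested, grouped by role, with bars for the standard error and open points for an adjusted p of 0.05 or above. Dotted lines mark a log2 fold change of 1 in size, past which lie Tnf, Tnfsf15, Tnfsf9, Cd40, Tnfrsf9 and Tnfrsf12a on the right and Fas and Tnfrsf18 on the left.

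By role, 3 of the 11 ligands tested were called higher, 2 lower and 6 not called. Of the 18 receptors tested, 9 were higher, 7 lower and 2 not called. The 5 death-domain receptors tested had 1 higher (Tnfrsf21) and 3 lower (Fas, Ngfr and Tnfrsf10b), and their median log2 fold change was −0.36. The summed level of the 7 death-domain receptors was 111 to 123 FPKM in GFP and 87.1 to 102 FPKM in OEIRF7. The 9 TRAF-binding receptors without a death domain had 5 higher and 3 lower with a median of 0.23. Their 16 members summed to 314 to 326 FPKM in GFP and 515 to 559 FPKM in OEIRF7. The rise of this sum lay in Tnfrsf12a (175 FPKM in GFP and 363 in OEIRF7 on average) and Cd40 (27.9 and 70.6), not in the class as a whole. The 3 decoy receptors had 2 higher and 1 lower, and summed to 167 to 177 and 166 to 179 FPKM. Tnfrsf26, which was put in no class, was higher.

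Tnf, the founding ligand of the family and an inflammatory cytokine made chiefly by macrophages, showed the largest rise among the 29 genes. It lies at chr17:35199381-35202007, minus strand (GRCm38). Its values were 0.411, 0.641, 0.324 and 0.496 CPM in the GFP libraries and 3.88, 3.83, 4.36 and 3.04 CPM in those labelled OEIRF7. All 4 libraries labelled OEIRF7 were above all 4 GFP libraries, and the lowest of them held 3.04 CPM against 0.641 CPM in the highest GFP library. The log2 fold change was 3.0 (SE 0.223, edgeR adjusted p = 3.2e-08), or 8.01-fold, and it was 1.36 by limma on log2(FPKM + 1), where the added 1 shrinks differences between low values. The exact two-sided permutation test of 4 libraries against 4 gave p = 0.029, the smallest it allows. The level remained low, at 0.288 ± 0.0797 FPKM in GFP and 2.32 ± 0.330 FPKM in OEIRF7 (SD, n = 4). The macrophage markers called higher rose by 0.21 to 1.07 on the log2 scale, while Cx3cr1 fell (−1.86) and Ptprc, Csf1r, C1qa and C1qb were not called. The part of macrophages in the rise of Tnf was not tested.

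Its receptors were present at much higher levels. Tnfrsf1a encodes the death-domain receptor TNFR1, through which TNF can signal either survival or death, and Tnfrsf1b encodes TNFR2, which binds TRAF2 and has no death domain. The values of Tnfrsf1a were 109, 111, 107 and 109 CPM in the GFP libraries and 118, 116, 108 and 123 CPM in those labelled OEIRF7. The groups overlapped, and the log2 fold change of 0.09 (SE 0.0398, edgeR adjusted p = 0.059) missed the threshold. That call depended on the settings, since the adjusted p was under 0.05 in 6 of the 16 alternatives and was lowest, at 0.0094, without OEIRF7 replicate 3. The values of Tnfrsf1b were 116, 122, 107 and 117 CPM in the GFP libraries and 140.2, 144, 121 and 136 CPM in those labelled OEIRF7. The lowest library labelled OEIRF7, replicate 3, lay among the GFP libraries, and the log2 fold change was 0.23 (SE 0.0526, edgeR adjusted p = 0.0017).

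Tnfsf15 encodes TL1A, a ligand of endothelial and myeloid origin that acts on T cells through the death-domain receptor DR3, the product of Tnfrsf25. Tnfsf15 lies at chr4:63727084-63745113, minus strand. Its values were 2.28, 1.40, 2.63 and 2.10 CPM in the GFP libraries and 10.7, 11.9, 14.1 and 9.49 CPM in those labelled OEIRF7. The groups lay far apart, with the lowest value in OEIRF7 above every value in GFP. The log2 fold change was 2.46 (SE 0.164, edgeR adjusted p = 9.9e-09), or 5.49-fold, and was 1.13 by limma on log2(FPKM + 1). Tnfrsf25 was too low to be tested, with 22, 13, 8 and 8 counts in the GFP libraries and 9, 13, 1 and 4 counts in those labelled OEIRF7. Endothelial markers, for which the summed CPM is given above, included 3 called higher and 1 lower of 7. Over all genes tested, 58.9% were called. The part of endothelial cells was not tested.

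Tnfsf9 and Tnfrsf9 are a ligand and receptor pair, CD137 ligand and CD137, known for costimulation of T cells, and both rose. Tnfsf9 lies at chr17:57105325-57107757, plus strand. Its values were 6.98, 7.09, 8.35 and 5.53 CPM in the GFP libraries and 15.4, 15.1, 17.9 and 16.2 CPM in those labelled OEIRF7. It rose by 1.21 on the log2 scale (SE 0.105, edgeR adjusted p = 1.7e-07) with no overlap between the groups, and was the highest ligand in the libraries labelled OEIRF7 at 12.6 ± 0.921 FPKM (SD, n = 4). Tnfrsf9 lies at chr4:150914562-150946102, plus strand, within which the gene Camta1 overlaps it on the other strand. It had few reads, with 12, 7, 8 and 7 counts in the GFP libraries and 20, 28, 20 and 12 counts in those labelled OEIRF7. Each library labelled OEIRF7 nonetheless held more than each GFP library once scaled, from 0.267 to 0.448 CPM in GFP and from 0.487 to 0.965 CPM in OEIRF7. The log2 fold change was 1.18 (SE 0.324, edgeR adjusted p = 0.0057) and ranged from 1.04 to 1.37 with single libraries left out. Tnfrsf9 passed the filter on low counts only through the libraries labelled OEIRF7, which favours a call in that direction. With a minimum of 1 count in total, edgeR gave 1.18 (SE 0.373, adjusted p = 0.014). With at least 10 counts in every library, Tnfrsf9 was not tested. The sources do not say if reads were counted by strand, so those of Tnfrsf9 and Camta1 may not be separated. Camta1 itself was not called, at 0.21. Tnfsf9 likewise overlaps the gene Gm11110, and Tnfrsf18, described below, the gene Gm16008, on the other strand.

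**Figure D3:**
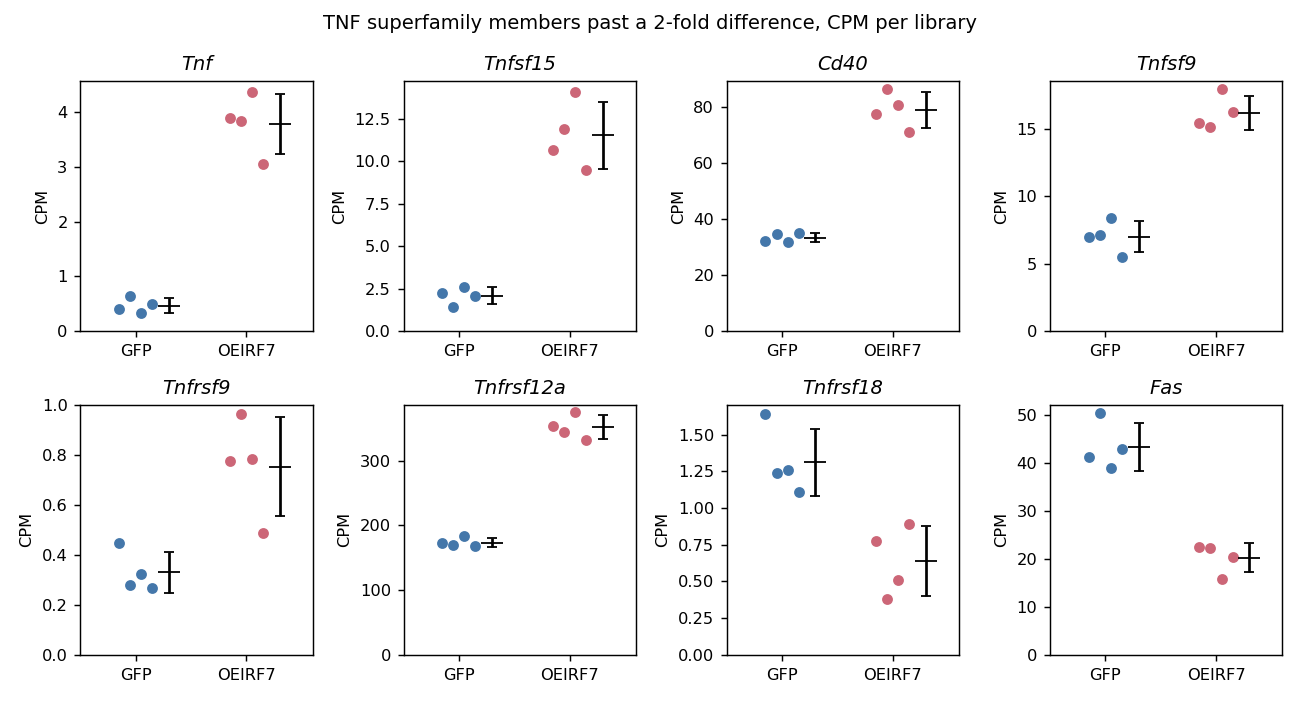
CPM in each library (points, replicates 1 to 4 from left to right) of the 8 genes called past a log2 fold change of 1 in size, with the mean and SD of the 4 libraries of each group as a black bar beside them and an axis from 0. No point of either group lies among those of the other.

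Cd40 encodes the receptor of CD40 ligand and is best known on B cells, macrophages and dendritic cells, though fibroblasts also carry it. It lies at chr2:165055627-165072948, plus strand. Its values were 32.4, 34.7, 31.9 and 35.0 CPM in the GFP libraries and 77.8, 86.7, 81.0 and 71.1 CPM in those labelled OEIRF7. The groups did not overlap, and the log2 fold change was 1.24 (SE 0.0583, edgeR adjusted p = 2.6e-10), or 2.36-fold. Cd40 stood at 27.9 ± 2.86 FPKM in GFP and 70.6 ± 5.79 FPKM in OEIRF7 (SD, n = 4). Among the 8 genes past a doubling or halving, only Tnfrsf12a had a higher level in OEIRF7. In GFP, Fas also stood above Cd40, at 29.4 ± 3.45 FPKM (SD, n = 4). Cd40lg, the ligand gene of Cd40 and a product of activated T cells, had no count in any of the 8 libraries. Of the 10 genes of the macrophage list, 5 were called higher and 1 lower, as given above. Over all genes tested, 58.9% were called. The part of macrophages in the rise of Cd40 was not tested.

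Tnfsf12 and Tnfrsf12a, the TWEAK and Fn14 pair, moved in opposite directions. Tnfrsf12a lies at chr17:23675445-23677468, minus strand and encodes a small receptor that is induced in injured tissue and signals through TRAF adaptors. Its values were 173, 170.1, 183 and 168 CPM in the GFP libraries and 354, 344, 376 and 332 CPM in those labelled OEIRF7. The groups lay apart, and the rise of 1.02 on the log2 scale (SE 0.0425, edgeR adjusted p = 9.1e-11) came just past a doubling. With single libraries left out it ranged from 0.98 to 1.05, and it stood at 0.98 without OEIRF7 replicate 3. The ligand gene Tnfsf12 had values of 19.2, 19.6, 16.6 and 17.6 CPM in the GFP libraries and 15.3, 13.6, 12.8 and 14.4 CPM in those labelled OEIRF7. It fell by 0.38 on the log2 scale (SE 0.0758, edgeR adjusted p = 0.00052), with no overlap. The ratio of Tnfrsf12a to Tnfsf12 in FPKM was 12.7 to 16.1 in GFP and 33.8 to 39.2 in OEIRF7.

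The counts of Tnfsf12 carry an uncertainty. Tnfsf12 (chr11:69686250-69695849, minus strand) and Tnfsf13 (chr11:69682846-69685784, minus strand) both lie inside Tnfsfm13 (chr11:69682577-69696098, minus strand), a read-through gene whose transcripts join both, so reads from shared exons could be split or dropped by the counting. Tnfsf13 encodes APRIL, a ligand for B and plasma cells, and held 0.343 to 0.672 CPM in GFP and 0.365 to 0.814 CPM in OEIRF7, with a log2 fold change of 0.08 (SE 0.350, edgeR adjusted p = 0.86). Tnfsfm13 held 5.52 to 6.25 CPM in GFP and 4.21 to 5.35 CPM in OEIRF7. It was called lower at −0.30 (SE 0.108, edgeR adjusted p = 0.027), but the adjusted p was above 0.05 in 6 alternatives, DESeq2 among them at 0.065, and 0.075, 0.08 and 0.054 without GFP replicate 4, OEIRF7 replicate 2 and OEIRF7 replicate 3.

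Fas, the death receptor that binds Fas ligand, fell. It lies at chr19:34290666-34327772, plus strand. Its values were 41.2, 50.4, 38.9 and 42.8 CPM in the GFP libraries and 22.5, 22.2, 15.9 and 20.3 CPM in those labelled OEIRF7. The libraries labelled OEIRF7 were all below the GFP libraries, and replicate 3 was the lowest of them. The log2 fold change was −1.09 (SE 0.0994, edgeR adjusted p = 2.6e-07), so that GFP held 2.14-fold the level in OEIRF7. Fasl, the ligand gene of cytotoxic lymphocytes, had 0, 0, 0 and 1 counts in the GFP libraries and 0, 1, 0 and 0 counts in those labelled OEIRF7. Tnfrsf18 encodes GITR, a costimulatory receptor of T cells, and lies at chr4:156026164-156028895, plus strand. It had 44, 31, 31 and 29 counts in the GFP libraries and 20, 11, 13 and 22 counts in those labelled OEIRF7. All 4 libraries labelled OEIRF7 were below all GFP libraries, with a log2 fold change of −1.05 (SE 0.284, edgeR adjusted p = 0.0054). Tnfrsf18 passed the filter on low counts only through the GFP libraries, which favours a call in that direction. With at least 10 counts in every library it was still tested, at −1.05 (SE 0.265, edgeR adjusted p = 0.0032). The changes of Fas and Tnfrsf18 both lie close to a halving. The number of genes called lower past a halving was 1 without GFP replicate 1 (Tnfrsf18 at −0.92) and 1 without OEIRF7 replicate 2 (Tnfrsf18 at −0.85). It was 0 without OEIRF7 replicate 3 (Tnfrsf18 at −0.96 and Fas just short of a halving), and 3 without GFP replicate 2, where Tnfrsf11a was also tested and called (−1.02, adjusted p = 0.044). The calls of Fas and Tnfrsf18 themselves held in every alternative. The GITR ligand gene Tnfsf18 had values of 1.46, 1.64, 1.01 and 1.56 CPM in the GFP libraries and 1.47, 2.14, 2.24 and 1.70 CPM in those labelled OEIRF7. Its groups overlapped, and the log2 fold change was 0.41 (SE 0.215, edgeR adjusted p = 0.11).

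Promoter windows were taken from RefSeq on GRCm38.p6, as the 250 bases upstream of each annotated start. Of the 46 genes, 36 had at least 1 window, for 40 windows in all, and Cd40 and Tnfsf9 had none. The windows below are those of the highest receptor, of the ligands with the largest rises, of Fas, and of Tnfrsf1b and Tnfrsf8, called higher, whose windows hold the motifs searched. Tnfrsf9, also higher, has matches too, but they lie past the first base that a GENCODE exon covers and its window is not shown. Each is written 5′ to 3′ on the strand of the gene and stops before the first base that a GENCODE exon covers. Capitals mark motif matches.
Tnf (chr17:35202008-35202257, minus strand): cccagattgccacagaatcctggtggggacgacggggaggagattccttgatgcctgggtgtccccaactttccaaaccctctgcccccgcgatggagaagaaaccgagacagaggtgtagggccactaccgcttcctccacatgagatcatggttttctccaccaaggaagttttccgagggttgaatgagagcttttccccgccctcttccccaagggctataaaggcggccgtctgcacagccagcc
Tnfsf15 (chr4:63745114-63745309, minus strand): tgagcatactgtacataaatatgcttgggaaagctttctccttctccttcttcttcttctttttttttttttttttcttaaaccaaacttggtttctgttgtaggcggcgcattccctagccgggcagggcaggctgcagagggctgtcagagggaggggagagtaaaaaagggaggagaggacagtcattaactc
Tnfrsf12a (chr17:23677469-23677699, minus strand): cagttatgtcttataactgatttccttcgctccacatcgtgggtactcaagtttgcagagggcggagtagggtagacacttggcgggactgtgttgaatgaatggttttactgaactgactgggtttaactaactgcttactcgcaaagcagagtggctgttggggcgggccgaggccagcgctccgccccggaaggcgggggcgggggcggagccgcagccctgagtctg
Fas (chr19:34290409-34290658, plus strand): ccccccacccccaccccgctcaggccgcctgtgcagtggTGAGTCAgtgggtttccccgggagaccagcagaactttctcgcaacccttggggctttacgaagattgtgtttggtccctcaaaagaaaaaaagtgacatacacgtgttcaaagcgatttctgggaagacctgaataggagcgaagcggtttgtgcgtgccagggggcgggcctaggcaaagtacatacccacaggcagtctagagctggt
Tnfrsf1b (chr4:145246871-145247120, minus strand): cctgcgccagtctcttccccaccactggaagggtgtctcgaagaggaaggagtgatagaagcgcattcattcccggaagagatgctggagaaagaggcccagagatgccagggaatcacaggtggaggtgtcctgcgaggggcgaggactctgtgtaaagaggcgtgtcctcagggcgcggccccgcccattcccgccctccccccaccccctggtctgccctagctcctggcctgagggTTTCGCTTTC
Tnfrsf8 (chr4:145315165-145315414, minus strand): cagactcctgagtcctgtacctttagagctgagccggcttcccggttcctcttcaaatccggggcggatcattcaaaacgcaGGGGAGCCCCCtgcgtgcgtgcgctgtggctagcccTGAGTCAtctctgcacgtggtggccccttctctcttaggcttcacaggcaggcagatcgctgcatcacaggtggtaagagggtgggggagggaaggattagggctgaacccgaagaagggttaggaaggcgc

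Matches were searched on both strands in the full 250 bases. The core of the interferon-stimulated response element, the motif bound by interferon regulatory factors, was written as GAAA, any 2 bases, then GAAA. It was found in 4 of the 40 windows (10%), against 2.98% of all 32851 RefSeq windows. These 4 belonged to Tnfrsf1b, at 10 to 1 bases before the start, and to Tnfrsf14, Tnfsf13b and Tnfrsf17, and of these genes only Tnfrsf1b was called. The AP-1 motif, TGAGTCA or TGACTCA, was found in 6 windows (15%), against 4.46% of all windows. They belonged to Tnfrsf8, Tnfrsf9, Tnfsf13b, Tnfsf13, Tnfsf14 and Fas, with the Fas match 211 to 205 bases before the start. The NF-κB consensus was found in 4 windows (10%), of Tnfrsf8, Tnfrsf9, Tnfrsf25 and Ltb, against 7.25% of all windows. Of the windows for Tnf, Tnfsf15 and Tnfrsf12a, none held any of the 3 motifs. The matches of Tnfrsf14, Tnfsf13b, Tnfsf13, Tnfrsf25 and Tnfrsf9 lie past the first base that a GENCODE exon covers. All windows, those of other genes included, were searched without regard to exons. A match describes these letters only, and more distant sequence was not searched.

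Among the other receptors of at least 20 FPKM, most changes were small. Eda2r, a receptor of ectodysplasin A2 without a death domain, had values of 144, 144, 150.0 and 159.7 CPM in the GFP libraries and 93.0, 93.8, 88.7 and 88.8 CPM in those labelled OEIRF7. It fell by 0.71 (SE 0.0407, edgeR adjusted p = 1.9e-09) with the groups apart. Its ligand gene Eda had values of 4.55, 4.57, 5.23 and 5.15 CPM in the GFP libraries and 4.15, 5.17, 3.26 and 5.11 CPM in those labelled OEIRF7, which overlapped, and a log2 fold change of −0.14 (SE 0.144, edgeR adjusted p = 0.43). Tnfrsf11b encodes osteoprotegerin, a secreted decoy for RANK ligand and TRAIL. Its values were 172, 190.1, 155 and 178 CPM in the GFP libraries and 127, 133, 115 and 127 CPM in those labelled OEIRF7. It fell by 0.47 (SE 0.0578, edgeR adjusted p = 6.4e-06), again without overlap. RANK ligand itself, Tnfsf11, had only 0, 1, 0 and 0 counts in the GFP libraries and 4, 5, 0 and 2 counts in those labelled OEIRF7, and its signalling receptor gene Tnfrsf11a had 1 to 24 counts in GFP and 5 to 13 in OEIRF7.

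TRAIL, the product of Tnfsf10, is a death ligand, and its mouse receptors differed in direction. Tnfrsf10b, the death-domain receptor, had values of 98.4, 104, 96.4 and 102 CPM in the GFP libraries and 78.3, 79.6, 71.3 and 81.9 CPM in those labelled OEIRF7. It fell by 0.36 (SE 0.0449, edgeR adjusted p = 6.4e-06), with all 4 libraries labelled OEIRF7 below those of GFP. The decoy receptor gene Tnfrsf23 had values of 197, 189.7, 204 and 210.4 CPM in the GFP libraries and 213, 218, 218 and 227 CPM in those labelled OEIRF7. Its rise was small but without overlap, at 0.13 (SE 0.0375, edgeR adjusted p = 0.0084). The other decoy, Tnfrsf22, held 42.4 to 50.2 CPM in GFP and 55.6 to 64.2 CPM in OEIRF7 and rose by 0.31 (SE 0.0586, edgeR adjusted p = 0.0004), though limma on log2 FPKM gave an adjusted p of 0.15 with a pseudocount of 1 and of 0.1. Tnfsf10 had 7, 9, 18 and 13 counts in the GFP libraries and 6, 10, 15 and 11 counts in those labelled OEIRF7. It overlapped between the groups, with a log2 fold change of −0.19 (SE 0.396, edgeR adjusted p = 0.7). Tnfrsf26, a relative of the decoy receptors in the same gene cluster, had values of 120.5, 115, 126 and 118 CPM in the GFP libraries and 159, 162, 157 and 162 CPM in those labelled OEIRF7. It rose by 0.41 (SE 0.0354, edgeR adjusted p = 1.4e-07) with the groups apart. Tnfrsf26, Tnfrsf22 and Tnfrsf23 lie side by side on the minus strand of chr7 between 143607659 and 143685872 and share an overlapping gene on the other strand. Tnfrsf22 and Tnfrsf23 are close in sequence, so reads may be split between them.

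The lymphotoxin system was present on the receptor side. Ltbr, which drives noncanonical NF-κB signalling, had values of 107, 105, 108 and 104 CPM in the GFP libraries and 95.2, 90.9, 96.9 and 99.1 CPM in those labelled OEIRF7. It fell by 0.15 (SE 0.0363, edgeR adjusted p = 0.0024), and the groups did not overlap. Its ligand genes Lta and Ltb were too low to be tested. Lta had 3, 1, 2 and 1 counts in the GFP libraries and 1, 7, 4 and 3 counts in those labelled OEIRF7, and Ltb had 0, 0, 4 and 0 counts in the GFP libraries and 2, 1, 1 and 0 counts in those labelled OEIRF7. LIGHT, the product of Tnfsf14, binds Ltbr and the receptor HVEM, and Tnfsf14 had no count in the GFP libraries and 2, 19, 5 and 3 counts in those labelled OEIRF7. Against a floor of 3 counts over the GFP group, this is at least 9.64-fold higher, and at least 4.59-fold higher without OEIRF7 replicate 2, which held 19 of the 29 counts. HVEM, encoded by Tnfrsf14, held 1.26 to 2.16 CPM in GFP and 0.785 to 1.62 CPM in OEIRF7, with a log2 fold change of −0.38 (SE 0.250, edgeR adjusted p = 0.21).

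The remaining receptors tested were low. Tnfrsf21, the death-domain receptor DR6, held 2.63 to 3.24 CPM in GFP and 3.73 to 6.33 CPM in OEIRF7 and rose by 0.72 (SE 0.159, edgeR adjusted p = 0.0013). Tnfrsf8, the CD30 antigen of activated lymphocytes, held 0.485 to 0.721 CPM in GFP and 0.930 to 1.31 CPM in OEIRF7. It rose by 0.87 (SE 0.257, edgeR adjusted p = 0.009), and the part of lymphocytes in this rise was not tested. Ngfr, the p75 neurotrophin receptor, which binds no ligand of this family, held 13.7 to 13.8 CPM in GFP and 7.77 to 10 CPM in OEIRF7 and fell by 0.65 (SE 0.0866, edgeR adjusted p = 1.5e-05). Of the remaining ligands, Tnfsf13b encodes BAFF, a survival factor for B cells made by myeloid and stromal cells. It held 1.04 to 1.42 CPM in GFP and 1.45 to 1.86 CPM in OEIRF7, which did not overlap, but its log2 fold change of 0.39 (SE 0.206, edgeR adjusted p = 0.12) missed the threshold. Tnfsf4, the OX40 ligand, held 0.187 to 0.687 CPM in GFP and 0.314 to 0.852 CPM in OEIRF7, with a log2 fold change of 0.10 (SE 0.400, edgeR adjusted p = 0.85).

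In all, 17 genes were too low to be tested, many of them known from lymphocytes. Cd40lg and Tnfrsf17, the plasma cell receptor BCMA, had no count at all. Tnfrsf13b, the BAFF and APRIL receptor TACI, had 0 to 4 counts in GFP and 9 to 26 in OEIRF7, which did not overlap once scaled. With a minimum of 1 count in total, edgeR fitted 18458 genes, which included 44 of the 46. In that fit Tnfrsf13b reached a log2 fold change of 2.95 (edgeR adjusted p = 0.0011). Tnfsf14, described above, was also called (edgeR adjusted p = 0.0021). The other 13 with counts, Fasl, Lta, Ltb, Tnfsf11, Tnfrsf11a and Tnfrsf25 from above among them, were not called there. Tnfsf8, the CD30 ligand, had 1 to 9 counts in GFP and 7 to 13 in OEIRF7, and Tnfrsf4, the OX40 receptor, had 1 to 4 counts in GFP and 3 to 14 in OEIRF7. Cd27 had 1 to 5 counts in GFP and 0 to 9 in OEIRF7, and its ligand Cd70 had 0 to 2 counts in GFP and 0 to 2 in OEIRF7. Tnfrsf13c, the BAFF receptor, had 0 to 3 counts in GFP and 0 to 7 in OEIRF7, Tnfrsf19 had 2 to 5 counts in GFP and 0 to 4 in OEIRF7, and Edar, the death-domain receptor of ectodysplasin A1, had 1 to 8 counts in GFP and 0 to 2 in OEIRF7. Of these 13 genes, limma on log2(FPKM + 0.1) called Tnfrsf4 (0.95, adjusted p = 0.034), and Tnfrsf11a was called without GFP replicate 2, as given above.

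Set side by side, the 28 ligand and receptor pairs known from background knowledge included 10 in which both genes were tested and 3 in which both were called. Tnfsf9 with Tnfrsf9 and Tnf with Tnfrsf1b were both higher, and Tnfsf12 was lower while Tnfrsf12a was higher. On chr17, Ltb, Tnf and Lta lie between 35194439 and 35205351, and only Tnf had enough counts to be tested. Tnfsf9, Cd70 and Tnfsf14 lie between 57105325 and 57194177 on the same chromosome, where Tnfsf9 rose, Cd70 had 2 counts in 1 library of each group and Tnfsf14 had counts only in libraries labelled OEIRF7. On chr6, Cd27, Ltbr and Tnfrsf1a lie between 125232622 and 125362484, with Cd27 too low to be tested, Ltbr lower and Tnfrsf1a not called.

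Downstream of the receptors, 34 genes for adaptors, kinases, ubiquitin enzymes, caspase regulators and sheddases were all tested. Of these, 16 were called higher and 6 lower (64.7%), beside 58.9% of all genes tested, and their median log2 fold change was 0.11. Past 0.58 in size, 7 of the 34 were called, 6 higher and 1 lower. This is near the share over all genes tested, of which 19.1% were past it in either direction. Traf1, an adaptor that binds TRAF2 at several receptors of the family, had values of 0.597, 0.841, 0.932 and 0.877 CPM in the GFP libraries and 2.98, 2.86, 3.06 and 2.60 CPM in those labelled OEIRF7. It rose by 1.82 (SE 0.192, edgeR adjusted p = 1.3e-06). Birc3, the ubiquitin ligase cIAP2, held 12.7 to 15.3 CPM in GFP and 33.1 to 38.2 CPM in OEIRF7 and rose by 1.41 (SE 0.0700, edgeR adjusted p = 4.5e-10). Rhbdf2 encodes iRhom2, which carries the sheddase of TNF, ADAM17, to the cell surface, and rose by 1.08 (SE 0.0633, edgeR adjusted p = 2.6e-09), while Adam17 fell by 0.14 (SE 0.0440, edgeR adjusted p = 0.012). Cflar, the caspase-8 inhibitor c-FLIP, rose by 0.91 (SE 0.0646, edgeR adjusted p = 2e-08).

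The ubiquitin editor gene Tnfaip3, which encodes A20 and restrains NF-κB, rose by 0.70 (SE 0.0622, edgeR adjusted p = 2e-07), and its partner Tnip1 by 0.66 (SE 0.0659, edgeR adjusted p = 7.4e-07). Xiap, an inhibitor of caspases, fell by 0.60 (SE 0.0415, edgeR adjusted p = 1.4e-08). The groups did not overlap for any of these 7 genes. Over the list this held for 18 of the 34 genes, beside 53.8% of all genes tested. The 12 genes not called included those that couple death domains to caspase-8 and kinases, Tradd (0.06), Fadd (0.02), Casp8 (0.01) and Ripk1 (0.04). The others were Traf5, Map3k5, Map3k7, Tab1, Tab2, Rnf31, Edaradd and Adam10. Ripk3, the kinase of necroptosis, rose by 0.52 (SE 0.0408, edgeR adjusted p = 6e-08). The linear ubiquitin chain factors Sharpin and Rbck1 fell by 0.42 (SE 0.0523, edgeR adjusted p = 6.9e-06) and 0.35 (SE 0.0448, edgeR adjusted p = 9.6e-06).

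**Figure D4:**
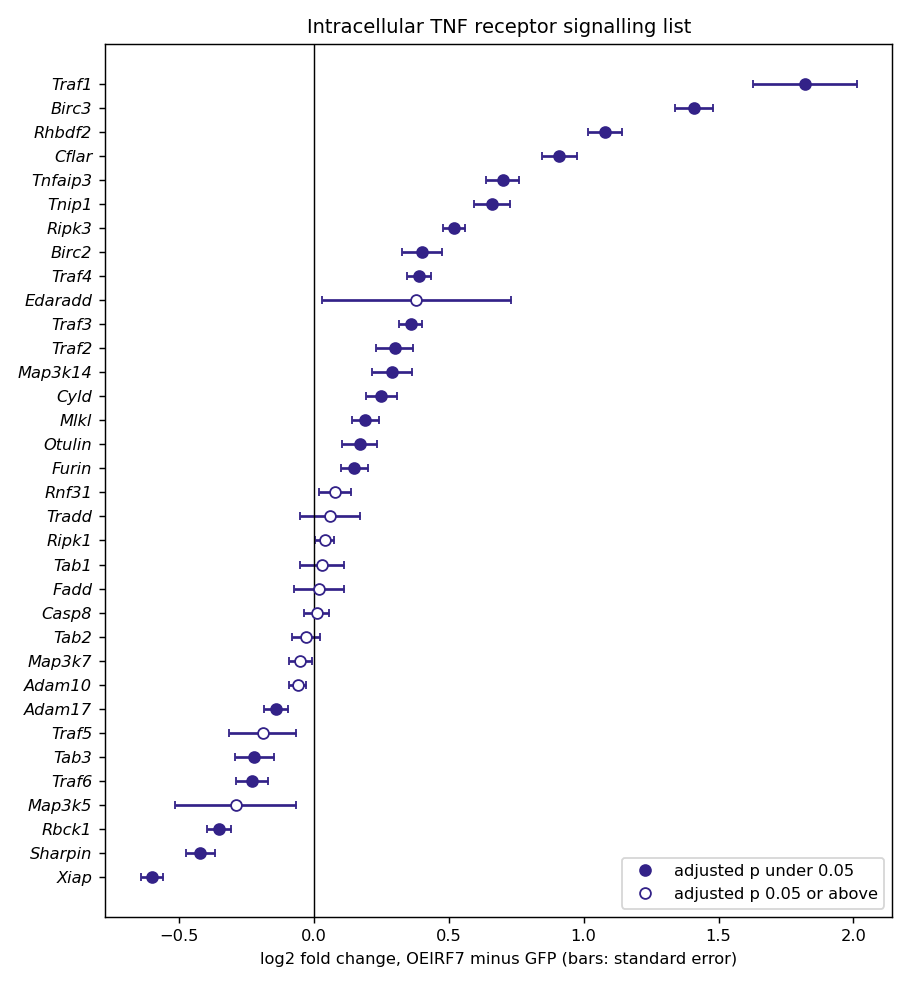
Log2 fold change (OEIRF7 minus GFP) of the 34 signalling genes, with bars for the standard error and open points for an adjusted p of 0.05 or above. Traf1, Birc3 and Rhbdf2 lie above 1 at the top, and Xiap is the lowest at −0.60.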

How the data were processed

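RNA-seq read counts and FPKM of 8 libraries, 4 labelled GFP and 4 labelled OEIRF7, were used as deposited. By the study's methods the authors trimmed reads with Trimmomatic, aligned them with HISAT2 to GRCm38, obtained counts per gene with HTSeq-count and FPKM with Cufflinks; versions and the strand setting are not given in the sources used here. The labels and the methods name different extraction and library kits. The table's columns of the authors' own comparison (group means, log2 ratio, p, FDR) were not used. The genes and lists were chosen with earlier results of these data known. Groups come from the sample titles.

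Counts were tested with edgeR 4.0.16 in R 4.3.3 (TMM, filterByExpr, quasi-likelihood test, no covariate), with p-values adjusted by Benjamini-Hochberg over all 13533 genes tested. CPM were scaled by the TMM factors, which lay between 0.989 and 1.01. Values in every library are given for genes called past a log2 fold change of 1 in size, for genes with a mean of at least 20 FPKM, and for their ligands or receptors. The other genes tested are given by their range, genes not tested by their counts, and signalling genes are named when called past 0.58; values of other signalling genes were chosen after they were seen. Alternatives were DESeq2 1.42.0, limma 3.58.1 on log2(FPKM + 1) and log2(FPKM + 0.1), other scaling and filters, a replicate block, and leaving out each library. The procedure was also tested on simulated data. Positions come from GENCODE M21, in which all 46 gene IDs were found.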

Additional observations from a re-analysis of the deposited data

Results flagged for a closer look

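Of 58 groups of 4 libraries checked for the 29 genes tested, 1 held a library far from the others, and about 2.9 would by chance at a rate of 1 in 20. This was Tnfsf4, the OX40 ligand gene, in GFP replicate 1, at 0.187 CPM against 0.641, 0.567 and 0.687 CPM in the other GFP libraries. On the log2 CPM scale the gap to the nearest library was 0.840 of the whole range of the group, above the 95% critical value of Dixon's test. Tnfsf4 was not called in the comparison, and its log2 fold change went from 0.10 to −0.19 without this library.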

How the results depend on the processing

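Of the 21 genes called, 19 kept their call and none changed sign in the alternatives in which they were tested. Over 459 values of single genes under 16 alternatives, 439 kept direction and side of the threshold. The count called lower past a log2 fold change of 1 in size, 2 in the reported fit, was 1 by limma on log2(FPKM + 1), 1 by limma on log2(FPKM + 0.1) and 0 to 3 with single libraries left out. The count called higher past it, 6 in the reported fit, was 4 with at least 10 counts in every library. Tnf and Tnfrsf9 were not tested there. The count reached 8 by DESeq2 and with a minimum of 1 count in total. Signs turned only for genes that were not called. Tnfsf4 went to −0.19 without GFP replicate 1 and −0.17 without OEIRF7 replicate 4 and ranged up to 0.29, Tnfsf10 went to 0.11 without GFP replicate 3 and ranged down to −0.43, and Tnfsf13 went to −0.10, −0.11 and −0.10 without GFP replicate 4, OEIRF7 replicate 1 and OEIRF7 replicate 2 and ranged up to 0.24. Calls of 2 genes were lost, Tnfsfm13 and Tnfrsf22, and that of Tnfrsf1a was gained, as given above. The cause was not tested. With single libraries left out, 12 to 13 of the genes were called higher and 8 to 10 lower. DESeq2 called 14 higher and 8 lower among 44 genes, and a filter of at least 10 counts in every library left 24 genes, of which 11 were higher and 9 lower.

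The titles of both groups carry replicate numbers 1 to 4. Deviations from the group means of same-numbered libraries correlated at 0.079, 0.095, 0.138 and 0.104, not all above 0.1, though each library correlated best with its own number. With the replicate number as a block, 13 genes were called higher and 9 lower, and 8211 genes in all against 7969. Genes of a few counts limit what this depth can show.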

Other observations

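Relt encodes a receptor of the TNF receptor superfamily whose symbol lies outside the rule by which the genes were chosen, and it was picked after its values were seen. It held 5.08, 4.45, 6.40 and 5.61 CPM in the GFP libraries and 13.9, 15.1, 14.7 and 13.8 CPM in those labelled OEIRF7. The groups did not overlap, and the log2 fold change was 1.42 (SE 0.0988, edgeR adjusted p = 1.6e-08).

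The libraries of a group differed from each other by more than counting error, with chi-square per degree of freedom of 2.91 to 9.94 over pairs of replicates. OEIRF7 replicate 3, whose omission moved Tnfrsf1a, Tnfrsf12a, Tnfrsf18 and Fas as given above, stood at 7.06, 9.94 and 9.36 against the other 3 libraries of its group.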
